A study of Sus scrofa with 18 samples.

Results

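The endometrium of Meishan gilts on gestational day (GD) 50 was compared with that on GD26. The comparison rested on 6 of the 18 Affymetrix porcine arrays of the study, 3 of GD50 and 3 of GD26. Members were all probe sets, other than controls, whose intensity exceeded 100 on at least 3 of these 6 arrays, which 8743 of the 23935 probe sets did. Of these, 7370 exceeded 100 on all 6 arrays, while 497 just met the rule with 3 arrays and 365 just missed it with 2. The median log2 value over the 6 arrays was 6.64 for the probe sets with 3 arrays above 100 and 6.46 for those with 2.

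The study profiled the uterine lining of 2 pig breeds, Meishan and Yorkshire, around and after implantation (GD15, GD26 and GD50) to find genes linked to implantation and placentation. The Meishan is a Chinese breed known for its large litters, and its gilts were mated to Meishan boars. The tissue of both days was endometrium taken where a conceptus was attached, and no treatment is named for either group. Each day was represented by 2 gilts, and each array held RNA of 1 attachment site of one gilt pooled in equal volume with the corresponding site of the other gilt. The 3 arrays of a day therefore came from the same 2 animals, and every p-value below covers how far pools of sites differed, and not how far gilts differ.

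The pig placenta does not invade the uterus. The trophoblast lies against an intact uterine epithelium, and the glands feed the conceptus with a secretion called histotroph. GD26 is the end of the attachment period, and by GD50 the placenta has reached a stage of steady growth in which the folded epithelial bilayer and the capillaries beneath it carry the exchange.

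Values are log2 intensities. A probe set rose or fell on GD50 where limma, fitted to the 9 Meishan arrays, gave a Benjamini-Hochberg adjusted p under 0.05 over the 8743 probe sets, and it is a differentially expressed gene (DEG) where the fold change was also at least 2. A gene was taken by its brightest probe set. Where all 3 arrays of the dimmer day lay under an intensity of 100 (6.64 log2), the fold is given as at least the fold over 100, and the log2 difference of such a gene is a fitted value and no bound. Every log2 difference is GD50 minus GD26, with the standard error (SE) of the fit.

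The 6 arrays had medians of 8.45 to 8.49 over the 8743 probe sets and correlated at 0.965 to 0.985 within a day, against 0.886 to 0.917 between days. The signal of the actin control at its 3′ end exceeded that at its 5′ end by 4.63 to 5.23 log2 on the GD50 arrays and by 3.54 to 3.92 on the GD26 arrays, with no overlap, while the GAPDH control gave 0.74 to 1.02 on GD50 and 0.76 to 0.87 on GD26. The part of this difference in the results was not tested. The median SD between the arrays of a day was 0.153 log2 on GD50 and 0.169 on GD26, but 52 probe sets had an SD above 1 on GD26 and 15 on GD50.

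Markers of endometrial epithelium differed in level. EPCAM, CDH1, KRT8, KRT18, KRT19 and ACP5 were bright on both days. MUC1 read 7.05 to 7.48 on GD50 and 6.57 to 7.48 on GD26. EPCAM read 13.06 to 13.11 on GD50 and 13.27 to 13.49 on GD26, and ACP5, the uteroferrin that carries iron in pig histotroph, read 15.34 to 15.52 on GD50 and 14.76 to 15.22 on GD26. Neither passed the test. The receptors ESR1 and PGR, taken here as epithelial markers too, lay under 100 on all 6 arrays, as did COL1A2, COL3A1 and the muscle marker DES. The stromal genes VIM, DCN and LUM were bright, at −0.51, −0.35 and −0.32 log2, and did not pass. The stromal receptor PDGFRB fell by 0.67 (SE 0.16, adjusted p = 0.0165), a call lost without GD26 replicate 1 or GD50 replicate 2. In all 4 of these stromal genes the GD50 arrays lay below the GD26 arrays. Of the trophoblast markers, PLET1, PAG6 and PPAG3 were bright as well. GATA3 read 8.09 to 9.16 on GD50 and 8.39 to 9.57 on GD26 and did not pass, and TFAP2C lay under 100 on all 6 arrays. PLET1, a surface protein of pig trophoblast, read 14.80 to 15.14 on GD50 and 14.37 to 15.00 on GD26. On the Meishan GD15 arrays it read 2.19 to 2.23, and the placental genes PAG6 and DPPA5 read 2.59 to 2.67 and 2.18 to 2.20. How much conceptus tissue the pools held was not tested. In bulk tissue of this kind, fewer cells of a type and less RNA per cell cannot be told apart.

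A pair of GD26 arrays stood apart. GD26 replicate 1 held some genes that the liver is known to make, which were near the lowest values on the other arrays. Other liver genes did not stand apart there. ALB, albumin, read 2.18 to 2.27 on GD50 and 2.18 to 2.21 on GD26. APOA1 read 10.66 to 10.92 on GD50 and 11.51 to 11.88 on GD26. AFP, the fetal albumin-like protein, read 11.42 there and at most 2.54 on the other 5 arrays, AHSG (fetuin) read 11.93 against at most 4.50, and ORM1 read 11.56 against 2.18. SERPINA1, the antitrypsin gene, read 8.72, 9.03 and 8.74 on the GD50 arrays against 12.19, 4.20 and 2.65 on the GD26 arrays, and did not pass the test. The embryonic globin HBE1 read 2.87, 3.07 and 2.68 on the GD50 arrays against 12.64, 10.96 and 6.64 on the GD26 arrays. It was above 100 on only 2 arrays and so was not tested, and these genes of embryo and liver were chosen after their values were seen. GD26 replicate 3, which had the lowest HBE1 of its day, was also the lowest of all 6 arrays for several placental genes described below.

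With all 9 Meishan arrays in the fit, 797 probe sets rose on GD50 (9.12% of those tested) and 967 fell (11.1%). Of these, 327 (3.74%) were DEGs that rose and 366 (4.19%) DEGs that fell, and 2880 had an unadjusted p under 0.05. The median difference over all 8743 was −0.02 log2. All GD50 arrays lay above all GD26 arrays in 20.3% of the probe sets and below them in 23.4%. By gene, 350 of 4162 rose (8.41%) and 445 fell (10.7%), with a median of −0.04. These shares over all genes are the background of every list count below. The count that rose became 508 without GD26 replicate 3 and 490, 503 or 519 without GD50 replicate 1, 2 or 3, and the count that fell became 610 without GD26 replicate 3 and 620 without GD50 replicate 1. The DEG counts moved by less than 1.5 times with any Meishan array left out. In the plot of mean level against difference, named genes ran from −8.87 log2 for SULT1E1 to 10.86 log2 for ETNPPL.

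**Figure D1:**
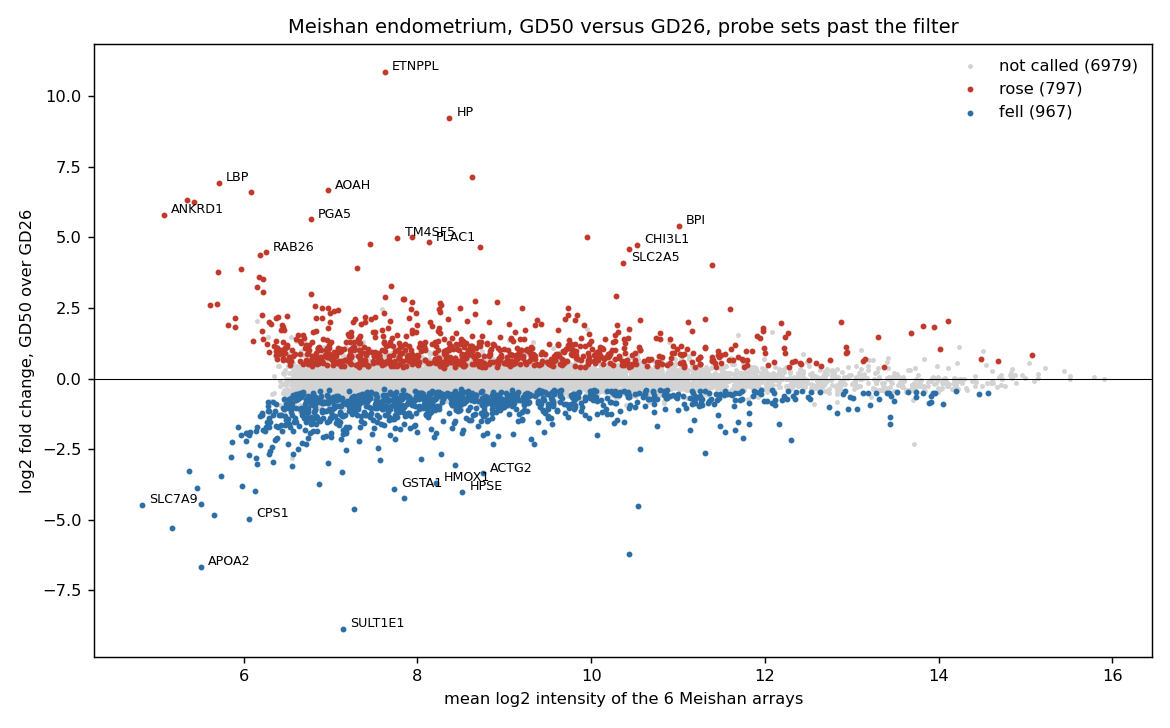
Difference between GD50 and GD26 (log2, vertical axis) against the mean log2 intensity of the 6 Meishan arrays (horizontal axis), 1 point for each of the 8743 probe sets. Coloured points are the 797 that rose and the 967 that fell, and the named genes run from ETNPPL at 10.86 to SULT1E1 at −8.87.

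LBP, AOAH and BPI were among the 12 genes that rose most. LBP, which binds bacterial lipopolysaccharide in plasma and presents it to receptors, read 9.10, 8.98 and 9.45 on the GD50 arrays against 2.19, 2.19 and 2.35 on the GD26 arrays. AOAH, the enzyme that removes acyl chains from lipopolysaccharide and so inactivates it, read 10.32, 10.23 and 10.36 on GD50 against 3.42, 3.78 and 3.73 on GD26. BPI, an antibacterial protein of the same family as LBP, read 13.82, 13.76 and 13.59 on GD50 against 10.20, 9.05 and 5.66 on GD26. The 12 genes were chosen from those whose days did not overlap. The GD26 arrays agreed closely for LBP and AOAH but spanned over 4 log2 for BPI, with replicate 3 lowest. LBP was at least 5.79-fold higher on GD50 (adjusted p = 1.52e-09) and AOAH at least 12.6-fold (adjusted p = 2.00e-07). BPI differed by 5.42 log2 (SE 0.88, adjusted p = 0.00234), and its other probe set by 7.13.

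The gene with the largest rise, ETNPPL, encodes the lyase that breaks down phosphoethanolamine. It read 13.13, 12.98 and 13.05 on the GD50 arrays against 2.18, 2.21 and 2.18 on the GD26 arrays, at least 85.0-fold higher on GD50 (adjusted p = 6.77e-12). Haptoglobin, HP, which captures free hemoglobin, read 12.96, 12.74 and 13.23 on GD50 against 5.11, 3.06 and 3.10 on GD26, at least 80.6-fold higher (adjusted p = 3.33e-06). Both were among the bright genes of the GD50 tissue and under 100 on every GD26 array. The HP value of GD26 replicate 1, the array with AFP and AHSG, was the highest of its day.

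Further large rises were spread over unrelated functions. PGA5, a pepsinogen, read 9.38, 9.79 and 9.60 on the GD50 arrays against 2.79, 5.46 and 3.62 on the GD26 arrays, at least 7.71-fold higher (adjusted p = 9.74e-05). ANKRD1, a nuclear ankyrin repeat protein that stretch is known to induce in muscle, read 8.26, 7.92 and 7.77 on GD50 against 2.18 on each GD26 array, at least 2.53-fold higher (adjusted p = 4.42e-09). The chitinase-like glycoprotein CHI3L1, which macrophages and other cells secrete, read 13.01, 12.71 and 12.96 on GD50 against 7.72, 8.36 and 8.39 on GD26. It was already above 100 on every GD26 array and was 26.6-fold higher on GD50 (adjusted p = 2.31e-05). RAB26, a small GTPase of secretory granules, was at least 3.59-fold higher on GD50 (adjusted p = 1.69e-06).

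Carriers of fructose and retinol rose as well. SLC2A5, the fructose transporter GLUT5, read 12.45, 12.37 and 12.43 on the GD50 arrays against 8.64, 8.64 and 7.70 on the GD26 arrays, a 17.0-fold difference (4.09 log2, SE 0.23, adjusted p = 4.15e-06). Fructose is abundant in pig fetal fluids. RBP7, a cellular retinol-binding protein, read 13.38, 13.41 and 13.40 on GD50 against 9.79, 9.46 and 8.91 on GD26, a 16.1-fold difference (4.01 log2, SE 0.46, adjusted p = 3.37e-04). The GD50 arrays lay within 0.1 log2 of each other for both genes, and replicate 3 was again the lowest GD26 array.

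PLAC1 and TM4SF5 showed the same order of arrays. PLAC1, a membrane-associated protein of the trophoblast, read 10.76, 10.74 and 10.13 on GD50 against 7.26, 6.18 and 3.72 on GD26 (4.82 log2, SE 0.70, adjusted p = 0.00128). TM4SF5, a tetraspanin-like membrane protein, read 10.32, 10.66 and 9.82 on GD50 against 6.74, 5.54 and 3.55 on GD26 (4.99 log2, SE 0.63, adjusted p = 5.47e-04). In both genes all GD50 arrays lay above all GD26 arrays, and the GD26 arrays ran in the order of HBE1, replicate 1 highest and replicate 3 lowest. Whether the share of conceptus tissue in the pools had a part in this was not tested. The rises of PLAC1, TM4SF5 and BPI passed the test with each Meishan array left out.

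The largest fall was that of SULT1E1, the sulfotransferase that inactivates estrogens. It read 2.57, 3.07 and 2.49 on the GD50 arrays against 12.12, 11.23 and 11.37 on the GD26 arrays, at least 30.5-fold lower on GD50 (adjusted p = 1.83e-06). HSD17B2, which oxidises estradiol to the weaker estrone, read 12.41, 12.51 and 12.30 on GD50 against 13.47, 13.61 and 13.42 on GD26 (−1.09 log2, SE 0.13, adjusted p = 3.29e-04). Both genes were lower on every GD50 array than on any GD26 array, as the choice of the 12 required of SULT1E1. On GD50 SULT1E1 was near the bottom of the scale and HSD17B2 still bright.

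Another group of large falls was of detoxifying enzymes. GSTA1, a glutathione transferase, read 5.53, 5.59 and 6.22 on the GD50 arrays against 9.33, 9.59 and 10.13 on the GD26 arrays, at least 8.22-fold lower (adjusted p = 6.58e-06). GSTM3, another transferase of this kind, read 6.41, 6.53 and 6.91 on GD50 against 9.37, 9.51 and 9.48 on GD26 (−2.83 log2, SE 0.15, adjusted p = 2.12e-06). HMOX1, the inducible heme oxygenase, read 6.25, 6.34 and 6.53 on GD50 against 9.74, 10.03 and 10.41 on GD26, at least 10.7-fold lower (adjusted p = 5.29e-05). In each of these, every GD50 array lay more than 2 log2 below every GD26 array. HPSE, the heparanase that cuts heparan sulfate chains of the matrix, read 6.67, 6.35 and 6.52 on GD50 against 10.74, 9.88 and 10.93 on GD26 (−4.01 log2, SE 0.30, adjusted p = 2.42e-05).

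APOA2, CPS1, SLC7A9 and ABCC6 were also among the 12 genes that fell most. APOA2, an apolipoprotein of high-density lipoprotein, read 2.18 on each GD50 array against 8.59, 8.74 and 9.18 on the GD26 arrays, at least 4.57-fold lower on GD50 (adjusted p = 3.93e-09). CPS1, the first enzyme of the urea cycle, read 3.42, 3.12 and 4.19 on GD50 against 8.86, 8.44 and 8.33 on GD26, at least 3.73-fold lower (adjusted p = 1.83e-06). Unlike AFP and AHSG, these genes were at like levels on all 3 GD26 arrays. SLC7A9, a subunit of the cystine transporter, was at least 1.34-fold lower on GD50 (adjusted p = 1.04e-06) but did not pass the test where intensities under 100 were set to 100 (adjusted p = 0.0729). ABCC6, an efflux pump of the ATP-binding cassette family, was at least 4.25-fold lower (adjusted p = 3.79e-05). The motor protein KIF21A and the unnamed locus LOC100510975 were at least 2.26-fold and 5.16-fold lower. The plot of single arrays shows these leading genes together.

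**Figure D2:**
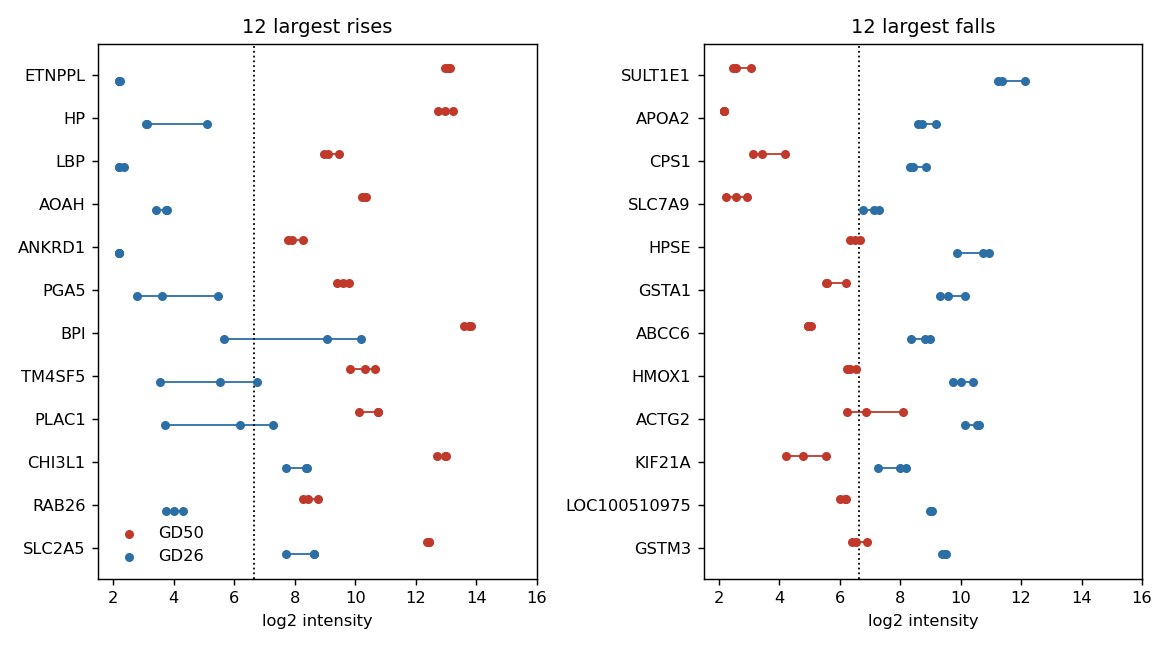
Log2 intensity (horizontal axis) of the 12 genes that rose most and the 12 that fell most on each of the 6 Meishan arrays, 1 point per array, with GD50 above GD26 in each row. The dotted line marks an intensity of 100. The genes were chosen from those with no overlap of the days. The GD26 points of BPI, TM4SF5, PLAC1 and PGA5 are widely spread.

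The 2 probe sets of ACTG2, the gamma actin of visceral smooth muscle, did not move together. The brighter one read 6.25, 6.88 and 8.09 on GD50 against 10.61, 10.14 and 10.56 on GD26 (−3.36 log2, SE 0.44, adjusted p = 7.06e-04), while the other differed by −0.19 log2 (adjusted p = 0.828). In NKIRAS1, PAG6 and RSF1, probe sets of 1 gene passed the test in opposite directions.

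Most genes of cell division fell. Of 28 measured genes of 95 listed, 20 fell on GD50 and none rose, with a median of −1.13 log2, against 10.7% of all genes that fell and a median of −0.04. DLGAP5, a spindle protein, read 4.96, 5.68 and 4.25 on the GD50 arrays against 7.76, 7.42 and 7.69 on the GD26 arrays, at least 1.97-fold lower (adjusted p = 2.81e-04). RRM2, the ribonucleotide reductase subunit that supplies DNA precursors, read 5.21, 5.71 and 4.39 on GD50 against 7.74, 7.22 and 7.66 on GD26, at least 1.86-fold lower (adjusted p = 5.92e-04). MELK, a kinase of dividing cells (at least 2.39-fold), the mitotic cyclin CCNB2 (at least 1.74-fold) and BIRC5, which acts at the centromere (−1.50 log2, SE 0.23), fell too, and the replication clamp PCNA fell by 0.73 log2 (SE 0.14, adjusted p = 0.00527). MELK, RRM2, DLGAP5 and CCNB2 were under 100 on every GD50 array and so passed the filter through the GD26 arrays alone. Their place among the measured genes thus depended on their GD26 level. With intensities under 100 set to 100, the median of the list was −0.78. GD50 replicate 2 was the highest of its day for MELK, DLGAP5, RRM2, CCNB2 and BIRC5. The regulators CKS2 (0.43) and STMN1 (−0.09), both bright, did not pass the test. The count that fell was 17 to 20 with any array left out.

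Glutathione and peroxide enzymes followed GSTA1 and GSTM3. Of 32 measured, 13 fell (40.6%, against 10.7% of all genes) and 1 rose (3.12%, against 8.41%), with a median of −0.12. GPX7, a glutathione peroxidase of the endoplasmic reticulum, was at least 1.61-fold lower on GD50 (adjusted p = 2.52e-04). The one that rose was SOD3, the extracellular superoxide dismutase, with 9.27, 9.14 and 9.80 on GD50 against 6.69, 7.97 and 7.25 on GD26 (2.10 log2, SE 0.29, adjusted p = 0.00105). The bright thioredoxin TXN (−0.02) and the cytosolic superoxide dismutase SOD1 (0.44) did not pass. The count that rose was 3 without GD15 replicate 3 and 2 with the replicate number as a block.

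Falls outnumbered rises among genes of muscle (54.5% fell), matrix (37%) and vessel (41.7%). Over all genes falls outnumbered rises as well, at 10.7% against 8.41%. In smooth muscle, 6 of 11 measured genes fell and none rose (median −0.55), among them TAGLN, an actin-binding protein of the contractile apparatus (−1.02, SE 0.21, adjusted p = 0.00753), and SMTN, smoothelin (−0.85, SE 0.16). The summed intensity of the 11 was 22930 to 28480 on the GD50 arrays and 31325 to 34123 on the GD26 arrays, and the defining marker DES was under 100 throughout. The widely used TPM1 (0.06) and CALD1 (0.03) did not pass the test with their brightest probe sets. The other probe set of TPM1 fell by 0.53 (adjusted p = 0.0426). That of CALD1 differed by −0.81 and did not pass. How much muscle or vessel each pool held was not tested.

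The stromal markers VIM, DCN, LUM and PDGFRB lay lower on GD50 as well, and their part in the matrix falls was not tested. In matrix, 10 of 27 genes fell and 2 rose (median −0.32), or 1 rose without GD50 replicate 1 or 3. COL6A3, a chain of collagen VI, read 9.30, 9.03 and 9.54 on GD50 against 10.55, 10.51 and 10.67 on GD26 (−1.29, SE 0.18, adjusted p = 9.47e-04). The proteoglycan ASPN (−1.45, SE 0.19), the collagen hydroxylase P4HA2 (−1.09, SE 0.15) and the gelatinase MMP2 (−0.94, SE 0.16) fell as well, and SPARC (−0.30), bright on both days, did not pass. MMP2 was the only one of 11 metalloproteinases and inhibitors to pass, while 3 fell without GD15 replicate 1 or 3, 2 without GD50 replicate 3, and 1 rose without GD26 replicate 2.

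Of 24 endothelial and angiogenic genes, 10 fell and 3 rose (median −0.39), and their summed intensity was 17479 to 20209 on GD50 and 23030 to 23963 on GD26. Of the 5 defining endothelial markers, VWF (−0.83, SE 0.18, adjusted p = 0.0117), CDH5 (−0.64, SE 0.15, adjusted p = 0.0131) and PECAM1 (−0.46, SE 0.12, adjusted p = 0.0252) fell, TEK (−0.15) did not pass, and KDR was under 100 on all 6 arrays. The call of CDH5 was lost without GD50 replicate 2, and that of PECAM1 without GD26 replicate 2 or 3 or any 1 of the GD50 arrays. AQP1, the water channel of capillaries and red cells, read 9.33, 8.77 and 9.14 on GD50 against 10.87, 11.20 and 11.11 on GD26 (−1.98, SE 0.17, adjusted p = 5.68e-05). The leukocyte adhesion receptor SELP fell by 0.84 (SE 0.18), and CLDN5, the endothelial tight junction protein, was at least 1.16-fold lower (adjusted p = 0.00164), a call lost where intensities under 100 were set to 100 (adjusted p = 0.331). The hypoxia factors HIF1A (−0.02) and EPAS1 (−0.33) did not pass. PDPN, podoplanin, a membrane glycoprotein of lymphatic endothelium and other cells, went the other way, with 10.75, 10.34 and 10.27 on GD50 against 7.54, 8.46 and 7.85 on GD26 (2.50, SE 0.25, adjusted p = 1.69e-04). The count that fell was 6 without GD50 replicate 2, and the count that rose was 1 without GD26 replicate 2 or 3 or any 1 of the GD50 arrays.

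**Figure D3:**
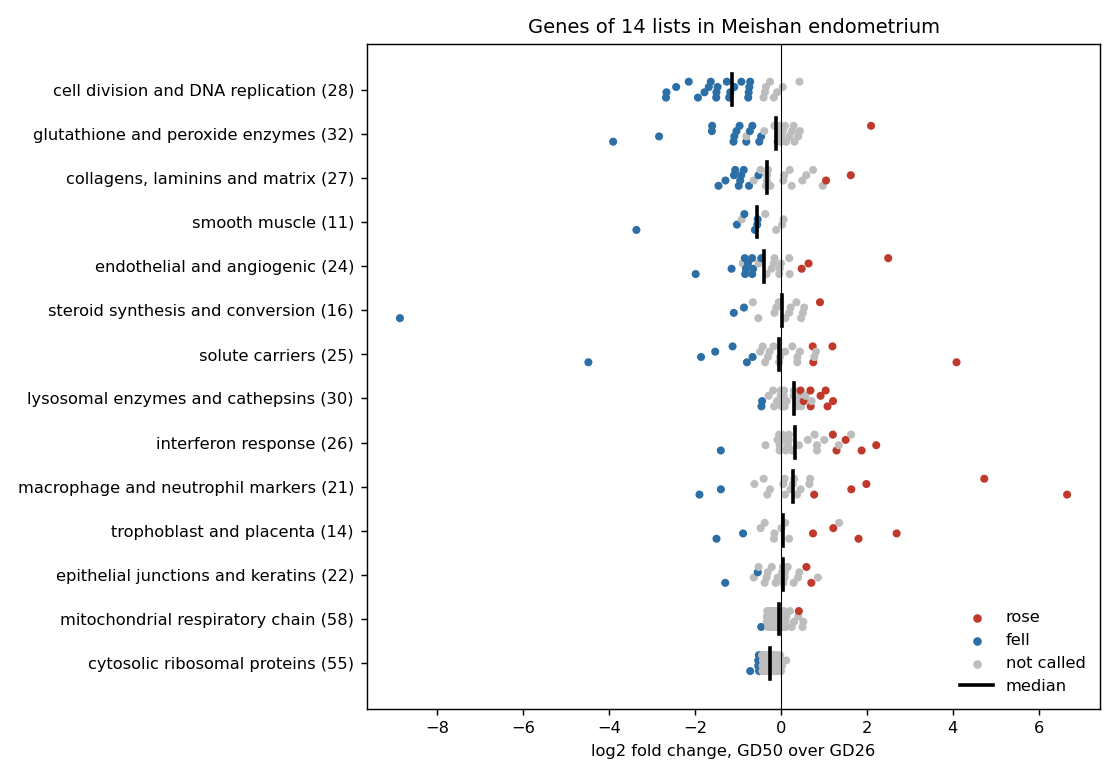
Log2 difference between GD50 and GD26 (horizontal axis) of the measured genes of 14 lists, with their number in brackets, 1 point per gene, coloured by whether the gene rose, fell or did not pass the test, and a bar at the median of each list. Cell division has its median at −1.13 and lies left of 0 but for 2 genes, while the respiratory chain clusters around its median of −0.05.

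Of 14 integrin and focal adhesion genes, 3 rose and 3 fell (21.4% each, against 8.41% and 10.7% of all genes). ITGB3, the integrin beta 3 subunit that binds osteopontin and vitronectin together with integrin alpha V, read 9.40, 9.25 and 9.31 on GD50 against 5.84, 6.76 and 5.57 on GD26 (3.26, SE 0.27, adjusted p = 5.73e-05). Its partner ITGAV rose by 0.89 (SE 0.18, adjusted p = 0.00876) and the adhesion protein TNS3 by 1.02 (SE 0.18). Both subunits of this pair were higher on all GD50 arrays than on any GD26 array. Their ligand SPP1, osteopontin, read 15.55 to 15.60 on GD50 and 15.30 to 15.34 on GD26, near the top of the scale and with no overlap. It did not pass in the fit of 9 arrays (0.25, SE 0.74), whose estimate of spread also takes in the GD15 arrays. ITGB1 (−0.10) did not pass either. The 3 falls were fewer, or none, without GD26 replicate 1 or 3 or GD50 replicate 1 or 2.

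Among trophoblast and placental genes, 4 of 14 measured rose (28.6%, against 8.41% of all genes) and 2 fell (14.3%, against 10.7%). Their median was 0.06, and their summed intensity was 79299 to 99040.1 on GD50 and 49483 to 85664 on GD26. IGF2, the imprinted growth factor of fetus and placenta, read 10.39, 10.50 and 9.92 on GD50 against 8.40, 8.07 and 6.25 on GD26 (2.70, SE 0.46, adjusted p = 0.00292). IGFBP2, which binds the insulin-like growth factors, read 15.07, 15.14 and 15.18 on GD50 against 13.20, 13.31 and 12.77 on GD26 (2.04, SE 0.32, adjusted p = 0.00206). The days were apart for both, and GD26 replicate 3 was the lowest. Of 4 measured growth factors and binding proteins of this family 3 rose, and IGFBP6 (0.35) did not pass. PAG6, a glycoprotein secreted by the trophoblast, rose by 1.81 (SE 0.42, adjusted p = 0.0147) with its brightest probe set, but its 3 probe sets ran from −1.02 to 1.81, and the mean of them did not pass (0.28, adjusted p = 0.530). PLET1 (0.19) and DPPA5 (−0.47), both bright, did not pass. The count of trophoblast genes that rose was 2 without GD26 replicate 3 or GD50 replicate 2, and 1 fell without GD26 replicate 1 or 2 or GD50 replicate 1 or 2.

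Of 16 genes of steroid synthesis and conversion, 3 fell (18.8%, against 10.7% of all genes) and 1 rose (6.25%, against 8.41%), with a median of 0.03. Beside SULT1E1 and HSD17B2, HSD17B4, a peroxisomal enzyme of fatty acid oxidation that can also oxidise estradiol, rose by 0.91 (SE 0.14, adjusted p = 0.00185). HSD11B1 (0.54) and HSD17B12 (0.11) did not pass. Without GD26 replicate 2 or GD15 replicate 3, and with the replicate number as a block, the count that rose was 2.

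RARRES1, a retinoic acid responsive membrane protein, read 13.22, 12.51 and 12.71 on GD50 against 11.12, 10.99 and 11.33 on GD26 (1.67, SE 0.30, adjusted p = 0.00443) and rose with RBP7. RBP4, the secreted retinol carrier of histotroph, fell by 0.54 (SE 0.12, adjusted p = 0.0115) and stayed bright, with 14.17, 14.14 and 14.27 on GD50 against 14.65, 14.77 and 14.77 on GD26. The retinal reductase RDH11 (0.08) did not pass. Of 7 measured retinoid genes, 2 rose (28.6%, against 8.41% of all genes) and 1 fell (14.3%, against 10.7%), or 2 fell without GD15 replicate 3.

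Of 26 uterine secretory proteins, 5 rose and 5 fell (19.2% each, against 8.41% and 10.7% of all genes), with a median of 0.28. STC1, stanniocalcin, a hormone of calcium and phosphate balance made by pig endometrium, read 6.97, 7.07 and 7.45 on GD50 against 9.39, 9.18 and 9.11 on GD26 (−2.06, SE 0.15, adjusted p = 2.42e-05). The protease inhibitor SERPINE2 (−1.91, SE 0.17) and the plasminogen activator PLAU (−1.51, SE 0.15) fell with it. CLU, clusterin, an extracellular chaperone, read 12.98, 12.75 and 13.16 on GD50 against 11.19, 11.57 and 11.73 on GD26 (1.47, SE 0.18, adjusted p = 4.24e-04). The brightest secretory genes, SLPI (0.06), SPP1 and ACP5, did not pass. The count that rose was 3 without GD26 replicate 1 or 3 or GD50 replicate 2, and 2 without GD50 replicate 1 or 3.

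Of 25 measured solute carriers, 4 rose and 6 fell, against 8.41% and 10.7% of all genes. SLC31A1, the copper transporter, read 9.57, 9.50 and 9.78 on GD50 against 11.05, 11.06 and 11.32 on GD26 (−1.53, SE 0.17, adjusted p = 2.97e-04), and the nucleoside transporter SLC28A3 was at least 1.80-fold lower. Without GD26 replicate 1 the count that rose was 7, and without GD50 replicate 3 it was 2. Of 15 aquaporin and ion transport genes, 2 rose (13.3%) and 5 fell (33.3%). S100G, the calcium carrier calbindin of uterine epithelium, read 12.16, 12.38 and 12.22 on GD50 against 11.05, 10.97 and 11.16 on GD26 (1.19, SE 0.20, adjusted p = 0.00290), while the calcium channel TRPV6 (0.26) and the water channel AQP8 (0.43) did not pass.

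Of 10 iron and heme genes, 3 rose (30%, against 8.41% of all genes) and 1 fell (10%, near the 10.7% of all genes). TF, transferrin, read 9.09, 8.88 and 8.97 on GD50 against 7.14, 6.93 and 6.43 on GD26 (2.15, SE 0.26, adjusted p = 4.42e-04). Its other probe set was above 100 only on GD26 replicate 1 and was not tested. HMOX2, the constitutive heme oxygenase, rose by 0.69 (SE 0.13, adjusted p = 0.00443), against the fall of HMOX1, and the ferritin chain FTH1 (−0.14) did not pass.

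Among 22 acute phase proteins and protease inhibitors, 3 rose (13.6%, against 8.41% of all genes) and 5 fell (22.7%, against 10.7%), with a median of −0.43. CFB, factor B of the alternative complement pathway, read 10.31, 10.51 and 10.36 on GD50 against 8.45, 8.53 and 8.40 on GD26 (1.93, SE 0.27, adjusted p = 9.45e-04) and rose with HP and CLU, while ITIH3, an inhibitor chain bound to hyaluronan, fell by 1.57 (SE 0.23). SERPINA3-2 read 12.36, 13.05 and 12.25 on GD50 against 14.73, 15.08 and 14.84 on GD26, with no overlap, and did not pass in the fit of 9 arrays (−2.33, SE 0.98, adjusted p = 0.127), though it did in a fit of the 6 arrays alone (adjusted p = 6.35e-04). Without GD15 replicate 3, 10 of the 22 fell.

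Of 26 interferon response genes, 5 rose (19.2%, against 8.41% of all genes) and 1 fell (3.85%, against 10.7%), with a median of 0.34. OAS1, an antiviral enzyme that senses double-stranded RNA, read 11.12, 11.29 and 11.30 on GD50 against 8.83, 9.51 and 9.74 on GD26 (1.88, SE 0.26, adjusted p = 9.02e-04). IFIT2, a binder of viral RNA, was at least 1.96-fold higher (adjusted p = 5.69e-05), and DDX58, the RNA sensor RIG-I, rose by 1.51 (SE 0.19). ISG15, a ubiquitin-like modifier, read 12.75, 12.93 and 13.01 on GD50 against 10.77, 11.25 and 11.76 on GD26 and did not pass in the fit of 9 arrays (1.64, SE 0.54, adjusted p = 0.0610). In all 4 genes the days were apart. The count that rose was 8 without GD15 replicate 1 and 12 without GD15 replicate 3, and the fall was not called with the replicate block, or without GD26 replicate 2 or 3 or any 1 of the GD50 arrays.

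Macrophage and neutrophil markers gave 5 rises (23.8%, against 8.41% of all genes) and 2 falls (9.52%, near the 10.7% of all genes) among 21 genes. Their median was 0.28, and their summed intensity was 22314 to 24787 on GD50 and 14048 to 16152 on GD26. Beside AOAH and CHI3L1, S100A9, a calcium-binding protein of neutrophils, read 8.55, 8.48 and 8.17 on GD50 against 6.32, 6.70 and 6.20 on GD26 (1.99, SE 0.33, adjusted p = 0.00268), and FOLR2, a folate receptor of tissue macrophages, rose by 1.64 (SE 0.22). LAPTM5, a lysosomal protein of blood cells, read 8.54, 8.26 and 8.72 on GD50 against 10.48, 10.09 and 10.64 on GD26 (−1.89, SE 0.29, adjusted p = 0.00162), and PLA2G7, the lipase that inactivates platelet-activating factor, fell by 1.40 (SE 0.13). The macrophage genes C1QC (0.28) and AIF1 (0.46) did not pass, the partner S100A8 lay under 100, and of the T cell markers CD3D, CD3E, CD3G, CD8A and CD2 none exceeded 100 on any array. Only 1 of 60 listed lymphocyte genes was measured, and it was not called. How many immune cells each pool held was not tested.

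Several groups gave few calls, or calls that rested on single arrays. Over all genes 8.41% rose and 10.7% fell, and the 9.09% each way in epithelial junctions lay near these shares. Of 30 lysosomal genes, 8 rose and 2 fell (median 0.30), among them the galactosidase GLB1 with 14.43, 14.56 and 14.61 on GD50 against 13.58, 13.66 and 13.23 on GD26 (1.04, SE 0.17, adjusted p = 0.00214), but the count that rose was 3 to 5 without GD15 replicate 2, GD26 replicate 1 or 3, or any 1 of the GD50 arrays, and the falls were 1 or none without GD15 replicate 2, any 1 of the GD26 arrays or any 1 of the GD50 arrays. Of 55 cytosolic ribosomal proteins, 7 fell and none rose, with 52 differences below 0 and a median of −0.24. That count was 0 without GD26 replicate 3, 2 to 4 without any 1 of the GD50 arrays and 17 without GD15 replicate 3. Of 20 genes of the swine MHC and antigen presentation, 4 fell, which became 0 without GD26 replicate 2 or 3 or any 1 of the GD50 arrays, 8 without GD15 replicate 3 and 1 with the replicate block. Of 10 steroid and prolactin receptors and partners, 5 fell, which became 0 without GD50 replicate 2 and 2 or 3 without GD15 replicate 2, GD26 replicate 2 or 3, or GD50 replicate 1 or 3. In the respiratory chain, 1 of 58 rose and 1 fell (median −0.05), and without any 1 of the GD50 arrays 0 did. In epithelial junctions 2 of 22 rose and 2 fell, the rises 1 without GD26 replicate 2 or 3 or GD50 replicate 1 or 2 and the falls 1 without GD26 replicate 2 or GD50 replicate 1 or 3, with the transcription factor ELF3 at 0.71 (SE 0.13) and the apical lipid raft protein MAL at −1.29 (SE 0.13).

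Of the 26 measured genes that the study names for this tissue, 3 rose (11.5%, against 8.41% of all genes) and 11 fell (42.3%, against 10.7%). The study chose them on these samples, so they are not independent evidence of their direction. PFN2, an actin-binding profilin, rose with ITGB3 and S100A9, with 10.44, 10.34 and 10.21 on GD50 against 9.03, 9.20 and 9.16 on GD26 (1.20, SE 0.12, adjusted p = 1.94e-04), and the centrosomal protein TACC1 fell by 1.43 (SE 0.27) with the genes of cell division, STC1, SULT1E1 and HMOX1. The homeobox gene MSX1 (0.14), BMP4 (−0.54), MMP7 (0.17) and THBS1 (0.21) did not pass between these days.

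The earlier step of these genes, GD26 minus GD15, is set beside the later one without a test of likeness, since both use the GD26 arrays. Over GD15, GD26 and GD50, SULT1E1 differed by 5.87 and then −8.87 log2, HPSE by 5.98 and then −4.01, HMOX1 by 4.41 and then −3.69, APOA2 by 6.66 and then −6.66, and CPS1 by 6.25 and then −4.97. These genes were thus bright on GD26 and dim on both other days. MELK (3.18 and then −2.67) and RRM2 (3.08 and then −2.44) had the same shape. GSTA1 (−2.90 and then −3.90), GSTM3 and SLC7A9 were lower at each step, while SLC2A5 (5.50 and then 4.09), RBP7 (5.84 and then 4.01) and BPI (5.57 and then 5.42) were higher at each. ETNPPL (−0.04 and then 10.86), LBP (0.05 and then 6.93) and ANKRD1 (0.00 and then 5.80) were at the bottom of the scale until GD50. RAB26 was dim on GD26 alone (−6.12 and then 4.47), and OAS1 was lower on GD26 than on either other day (−2.56 and then 1.88).

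**Figure D4:**
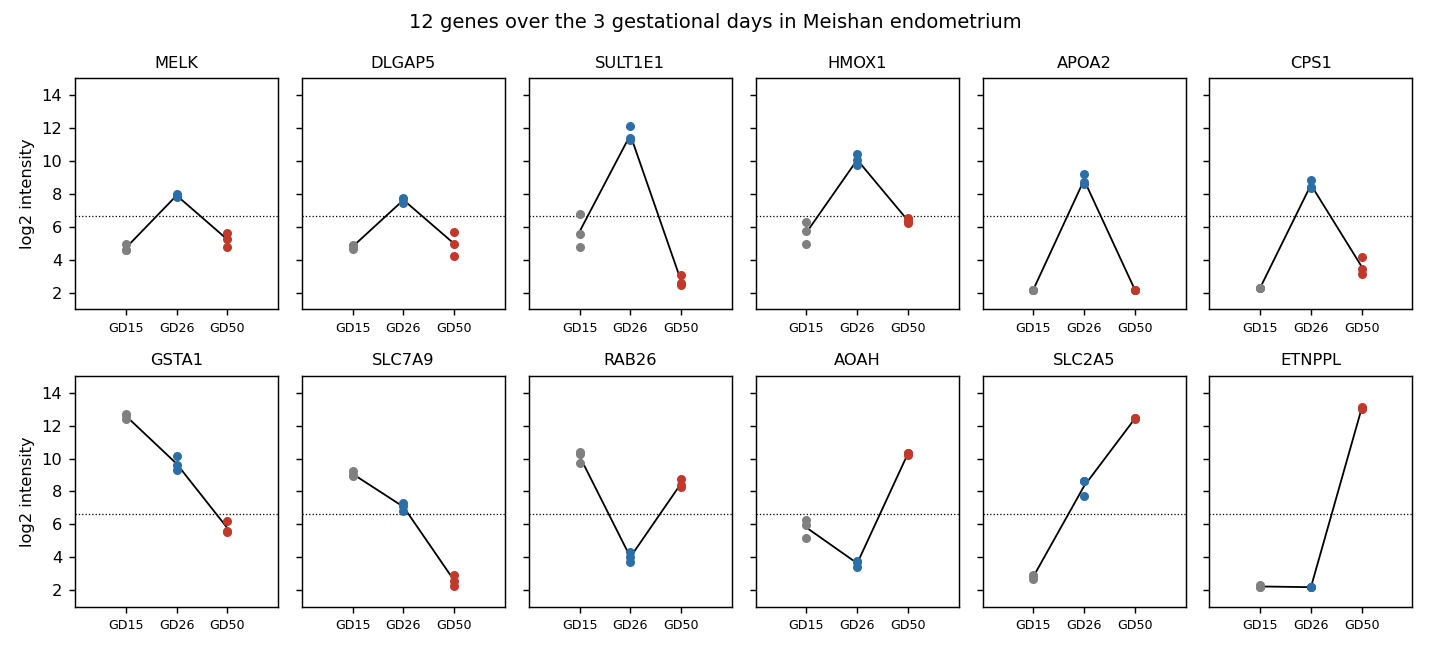
Log2 intensity (vertical axis) of 12 genes on the 3 Meishan arrays of each of GD15, GD26 and GD50 (horizontal axis), 1 point per array with lines through the means. The dotted line marks an intensity of 100. SULT1E1 and HMOX1 peak on GD26, SLC2A5 is higher on each later day, and ETNPPL is above 100 on GD50 alone.

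Whether the Meishan change was particular to this breed was tested against the same change in Yorkshire gilts, as Yorkshire change minus Meishan change in a limma fit of all 18 arrays. This difference was positive in 195 of the 8743 probe sets (2.23%) and negative in 224 (2.56%) at an adjusted p under 0.05. The Yorkshire arrays of both days had brighter hybridization controls and lower medians (7.89 to 8.26) than the Meishan arrays. Their 3′ excess of the actin control was 2.64 to 2.91 log2 on GD50 and 2.38 to 2.63 on GD26. In Meishan it was 4.63 to 5.23 on GD50 and 3.54 to 3.92 on GD26. The GAPDH control overlapped between the days in both breeds. The part of the actin values in the breed difference was not tested. After centring of each array on its median the counts were 282 (3.23%) and 237 (2.71%).

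Of the 26 interferon response genes, 12 had a negative breed difference (46.2%, against 2.72% of all genes) and none a positive one, and the count was 9 to 12 with each of the 18 arrays left out. Of these 12, OAS1, DDX58 and XAF1 rose in Meishan and fell in Yorkshire, while the others passed the test in 1 breed or the other. IFI30 (1.01 in Meishan and 0.71 in Yorkshire) and PSMB8 (−1.40 and −0.31) had the same sign in both breeds and no breed difference past the test. OAS1 rose by 1.88 in Meishan, while in Yorkshire gilts it read 5.44, 4.82 and 6.53 on GD50 against 8.61, 8.62 and 8.69 on GD26 and fell by 3.05 (difference −4.93, SE 0.50, adjusted p = 2.88e-05). DDX58 changed by 1.51 in Meishan and −1.16 in Yorkshire (difference −2.67, adjusted p = 0.00833). ISG15 had 1.64 in Meishan, which did not pass, and fell by 2.40 in Yorkshire (difference −4.03, adjusted p = 0.00463). The OAS1 values of GD26 were close between the breeds, at 8.83 to 9.74 in Meishan and 8.61 to 8.69 in Yorkshire, and those of GD50 were far apart.

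Of the 14 trophoblast and placental genes, 4 had a negative breed difference (28.6%, against 2.72% of all genes) and none a positive one. These were IGF2, PAG6, PLAC8 and PPAG3, and the count was 3 or 4 with each array left out. These are the 4 that rose in Meishan, a match that is not independent, since the breed difference contains the Meishan change. In Yorkshire 8 of the 14 fell and none rose, where 589 of all 4162 genes fell and 445 rose. Of genes outside the list, TM4SF5 read 8.67, 7.86 and 8.41 on Yorkshire GD50 arrays against 9.55, 8.34 and 9.38 on Yorkshire GD26 arrays, where the Meishan GD26 arrays read at most 6.74 (difference −5.77, SE 0.83, adjusted p = 9.88e-04). PLAC1 (−4.47, SE 0.86), BPI (−5.33, SE 1.01) and IGF2 (−2.88, SE 0.61) had differences of the same sign. Their Yorkshire changes were 0.35, 0.09 and −0.18, and none of these passed the test. LBP, which exceeded 100 on every Meishan GD50 array, lay under 100 on all 6 Yorkshire arrays of these days (fitted difference −4.53, SE 0.57, adjusted p = 3.30e-04).

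Among the falls, APOA2 was at 2.18 on every Yorkshire GD26 array, where the Meishan GD26 arrays read 8.59 to 9.18 (difference 6.69, SE 0.19, adjusted p = 1.89e-12). SLC7A9 fell by 4.48 in Meishan and lay under 100 on all 6 Yorkshire arrays, as APOA2 did (fitted difference 4.43, SE 0.35, adjusted p = 2.41e-06). CLDN5 fell in Meishan, a call lost with intensities under 100 set to 100, and rose by 2.39 in Yorkshire (fitted difference 3.53, SE 0.28, adjusted p = 2.41e-06). Its Meishan GD50 arrays (5.52 to 5.90) and Yorkshire GD26 arrays (5.19 to 5.77) lay under 100. CLU rose by 1.47 in Meishan and 3.60 in Yorkshire, and S100G by 1.19 and 2.58, with differences of 2.13 and 1.38. ETNPPL, HP, SULT1E1, HPSE and HMOX1 did not pass the test of a breed difference. These comparisons rest on 2 gilts per breed and day.

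**Figure D5:**
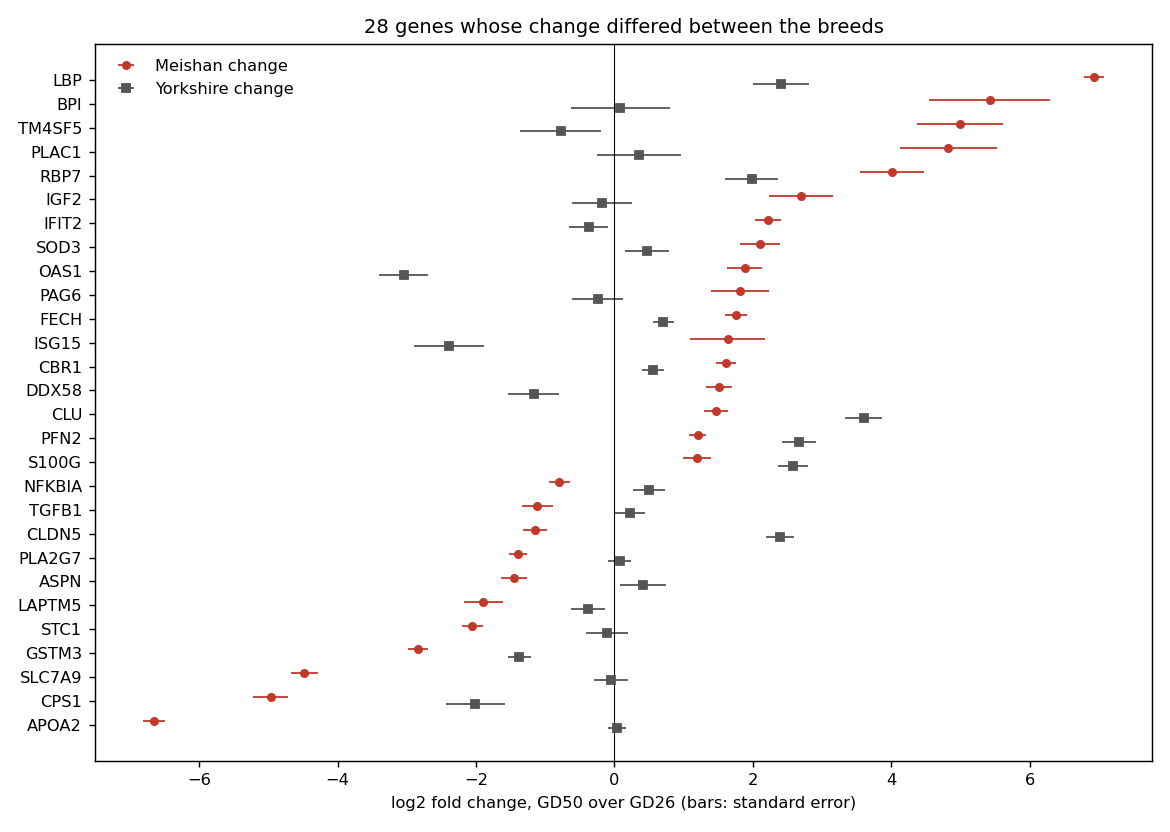
GD50 minus GD26 (log2) in Meishan and Yorkshire gilts for the 28 named genes whose change differed between the breeds, 1 point per breed and gene with bars for the standard error of the fit. OAS1 lies at 1.88 in Meishan and −3.05 in Yorkshire, and APOA2 at −6.66 in Meishan and 0.04 in Yorkshire.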

How the data were processed

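RNA of pooled attachment sites was hybridised to the Affymetrix Porcine GeneChip, and the submitters' processing notes name GCRMA and RMA without versions. The deposited values are log2 intensities per probe set, which the authors made by background correction, normalization and summarization in R. The scanner files were not used here. The 188 control probe sets were left out of 24123, and the filter was an intensity above 100 on at least 3 of the 6 arrays. limma 3.58.1 in R 4.3.3 (lmFit, eBayes) was fitted to the 9 Meishan arrays, with GD15 lending to the estimate of spread, and to all 18 arrays for the breed difference. Adjusted p is Benjamini-Hochberg over the 8743 probe sets, and a DEG also has a fold change of at least 2.

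Gene names came from the platform annotation, which gave 1 symbol to 4972 of the 8743 probe sets, for 4162 genes. The members, the 35 gene lists and the tests were chosen with earlier results of these data known. Among DEGs with 1 symbol, the 12 that rose most and the 12 that fell most are named, besides the study's own genes and, from every list, at most 4 called genes with the strongest change and at most 2 that were not called. Genes of lists whose calls were lost with 1 array left out were counted but not named with values. Exceptions are the cell type markers PDGFRB, CDH5 and PECAM1, and PSMB8 in the breed comparison. The number of arrays limits the precision.

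The replicate numbers come from the sample titles. Arrays of the same number deviated together weakly from their day's mean (r = 0.175, 0.134 and 0.352 across probe sets). Arrays of different number gave r from −0.353 to 0.213, the highest for GD50 replicate 2 with GD26 replicate 1. Deviations from a day's mean are not independent of each other. The numbers were taken to pair the arrays in an alternative fit. This is a weak hint from the data, since no source gives what a number marks. With the number as a block, 763 probe sets rose and 922 fell. Other alternatives were filters, intensity floors, quantile normalization, median centring, Bonferroni, other fold thresholds, fits of 6 and 18 arrays, the mean of a gene's probe sets, and each array left out. A fit of the 6 arrays with the block was chosen after seeing the data. On simulated data with the same groups, the fit found 87 of 100 planted changes of 1 log2 and 98 of 100 of 2 log2, and called 11 unplanted probe sets. The simulated noise was independent between arrays and held no difference between gilts, so these counts give no error rate over gilts. Plots were made in Python 3.11.15 (matplotlib 3.10.9).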

Additional observations from a re-analysis of the deposited data

Results flagged for a closer look

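For 28 of the named genes the change between GD50 and GD26 differed between the breeds by limma's test of the difference itself, and 20 of these passed with each of the 18 arrays left out in turn. Beside the genes already described, each value here is a log2 difference, the change in Yorkshire less that in Meishan.

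Among genes that rose in Meishan, the difference was −4.53 for LBP, −5.33 for BPI, −5.77 for TM4SF5, −4.47 for PLAC1, −2.88 for IGF2, −2.60 for IFIT2, −4.93 for OAS1 and −2.67 for DDX58. It was −1.05 for the carbonyl reductase CBR1 and −1.04 for FECH, the last enzyme of heme synthesis, and both of these rose in both breeds. ISG15, which did not pass in Meishan alone, had −4.03. RBP7 (−2.02) passed in 4 of the 18 fits with an array left out and SOD3 (−1.63) in 3, and SOD3 did not pass after median centring (adjusted p = 0.0670). PAG6 (−2.05) passed in 13. The change of CLU (2.13), S100G (1.38) and PFN2 (1.46, passed in 12) was larger in Yorkshire.

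Among genes that fell in Meishan, the difference was 6.69 for APOA2, 2.95 for CPS1, 4.43 for SLC7A9, 1.46 for GSTM3, 1.47 for PLA2G7, 1.95 for STC1 and 3.53 for CLDN5. LAPTM5 had 1.51 and passed in 15 of the 18 fits with an array left out, ASPN had 1.86 and passed in 12, the cytokine TGFB1 had 1.33 and passed in 16, and NFKBIA, the inhibitor of NF-kappa B, had 1.30 and passed in 12. GSTM3 fell in both breeds, by 1.37 in Yorkshire. LBP, IFIT2, APOA2, CPS1 and SLC7A9 lay under 100 on all 6 Yorkshire arrays of GD50 and GD26, so their differences are fitted values that rest on Yorkshire signals not above 100. The difference of CLDN5 is a fitted value too, since its Meishan GD50 and Yorkshire GD26 arrays lay under 100.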

How the results depend on the processing

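Of 93 named genes that rose or fell, 90 passed under every alternative that gave a value, and none changed direction. CLDN5 and SLC7A9 were lost with intensities under 100 set to 100, and PAG6 without a filter (adjusted p = 0.0959) and with the mean of its probe sets. The 93 leave out the markers PDGFRB, VWF, CDH5, PECAM1 and APOA1 and genes named only for a breed comparison or for opposite probe sets. Calls that PDGFRB, CDH5 and PECAM1 lost are given above. List genes were named with values only where the call held with each array left out. That part of the count was therefore fixed in advance. With an intensity above 200 on 3 of the 6 arrays, 227 DEGs fell. With Bonferroni over the filtered probe sets, 86 rose and 72 fell, all of them DEGs, and with Bonferroni over all 24123 probe sets 58 rose and 45 fell, again all DEGs. At a fold of 1.5 there were 651 DEGs that rose and 777 that fell, and at a fold of 3 there were 137 and 135. With intensities under 100 set to 100, the breed difference was positive in 321 probe sets. The cause of these shifts beyond the thresholds themselves was not tested. With 1 array left out at a time, 490 to 1016 probe sets rose and 610 to 1270 fell, the highest counts without GD15 replicate 3, and DEGs numbered 287 to 337 that rose and 333 to 370 that fell. The breed difference was positive in 105 (without Meishan GD26 replicate 3) to 355 (without Yorkshire GD26 replicate 1) and negative in 119 (without Meishan GD50 replicate 2) to 328 (without Yorkshire GD50 replicate 1). The replicate block gave 763 rises and 922 falls, with 322 and 361 DEGs, and took the call from none of the 93. List counts moved by over 1.5 times with the block are given with each list, and in addition lysosomal falls became 1 and rises in the respiratory chain 0. The fit of the 6 arrays alone gave 994 rises and 1223 falls. Dim probe sets limit these counts, since a fold over a group under 100 is only a bound.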

Other observations

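Few genes of heme and red cells were measured. Of 5, 2 rose (40%, against 8.41% of all genes) and 1 fell (20%, against 10.7%). The fall was lost without GD15 replicate 2, GD26 replicate 1 or 2, or any 1 of the GD50 arrays. FECH read 11.16, 11.42 and 11.35 on the GD50 arrays against 9.66, 9.76 and 9.27 on the GD26 arrays (1.75 log2, SE 0.16, limma adjusted p = 8.60e-05), and BPGM, which makes the oxygen-releasing phosphate of red cells and is also known from placenta, read 10.69, 10.76 and 10.51 on GD50 against 9.71, 9.44 and 8.88 on GD26 (1.31, SE 0.20). The days did not overlap in either gene. The adult beta globin HBB did not pass (−0.30), with 6.89 to 7.28 on GD50 and 6.92 to 7.72 on GD26. The red cell marker AHSP was under 100 on all 6 arrays. Another such marker, ALAS2, read 5.47 to 6.86 on GD50 and 4.83 to 5.86 on GD26 and was not tested.

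Serine and folate enzymes were divided, with 4 of 12 higher and 4 lower (33.3% each, against 8.41% and 10.7% of all genes). The serine synthesis enzymes PHGDH and PSPH went opposite ways: PHGDH was at least 1.58-fold higher on GD50, and PSPH read 11.18, 11.21 and 11.22 on GD50 against 12.49, 12.48 and 12.34 on GD26 (−1.24, SE 0.14, adjusted p = 3.59e-04). The mitochondrial folate enzyme MTHFD1L was at least 1.53-fold lower. The folate receptor FOLR1 gave −0.02 with its brightest probe set and 1.65 with the other. The list's rises were 2 without GD26 replicate 3 or GD50 replicate 1 or 2, and its falls 2 without GD50 replicate 1 or 3.

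Of 15 glycolytic genes 4 fell (26.7%, against 10.7% of all genes) and none rose. Among the 4, PFKP, a phosphofructokinase, read 7.34, 7.07 and 7.17 on GD50 against 8.38, 8.72 and 8.48 on GD26 (−1.34, SE 0.14, adjusted p = 2.21e-04). SORD, which turns sorbitol into fructose, fell by 0.96 (SE 0.17). Among signals, the chemokine CCL19 was at least 1.75-fold lower and TGFB1 at least 1.57-fold lower, while the receptor IL4R (1.04, SE 0.16) and the chemokine CXCL16 (1.04, SE 0.21) rose, and BMP7, a growth factor of the TGF-beta family, was at least 1.70-fold higher. The immediate early gene JUN (−1.08, SE 0.21) and NFKBIA (−0.80, SE 0.15) fell and the stress factor ATF3 (0.77, SE 0.14) rose. CBR1, which can reduce prostaglandin E2 to F2 alpha, read 13.16, 13.07 and 12.98 on GD50 against 11.62, 11.44 and 11.33 on GD26 (1.61, SE 0.14, adjusted p = 8.19e-05). The lipoprotein receptor SCARB1 fell by 0.96 (SE 0.19).

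The remaining lists gave few calls by limma. Over all genes 8.41% rose and 10.7% fell. The rises in cholesterol genes (9.09%) and the falls in proteasome and chaperone genes (11.3%) lay near these shares. Of 62 proteasome and chaperone genes 7 fell and none rose (median −0.12), of 22 genes of cholesterol synthesis and handling 2 rose and 4 fell, and of 10 prostaglandin genes 1 rose and 2 fell. Of 15 interleukins, chemokines and receptors 2 rose and 3 fell, of 24 immediate early genes and stretch targets 2 rose and 5 fell, and of 17 genes of TGF-beta and BMP signalling 1 rose and 1 fell. These counts moved with single arrays. The falls in proteasome and chaperone genes were 2 to 9 with each Meishan array left out, lowest without GD50 replicate 1, and those in cholesterol genes 2 to 5, lowest without GD26 replicate 1. The falls in immediate early genes were 3 without GD26 replicate 2 or 3 or any 1 of the GD50 arrays, and the rises in interleukins, chemokines and receptors 4 without GD15 replicate 1.

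Some of the largest changes belonged to probe sets without a gene name: 18 of the 50 largest rises and 25 of the 50 largest falls.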
